A study of Homo sapiens with 23 samples.

Results

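The genes described here are 9 brakes and adaptors of PI3K-AKT signaling, chosen by name from the 57875 genes listed in each sample and matched by Ensembl identifier. They are the insulin receptor substrates *IRS1* and *IRS2*, the PI3K regulatory subunits *PIK3R1* and *PIK3R3*, the catalytic subunit *PIK3CA*, the lipid phosphatase *INPP4B*, the AKT phosphatases *PHLPP1* and *PHLPP2*, and the mTOR inhibitor *DEPTOR*. All 9 were found and all 9 passed the filter on low counts. Their RNA was measured by RNAseq in HCT116 cells, a human colorectal carcinoma line, with and without the Argonaute proteins through which microRNAs act on mRNA.

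PI3K is a pair of a catalytic and a regulatory subunit. IRS adaptors dock it to activated insulin and growth factor receptors, it phosphorylates a membrane lipid, and that lipid brings AKT to the membrane to be activated. Lipid phosphatases such as INPP4B remove phosphates from the lipids, PHLPP phosphatases remove a phosphate from AKT itself, and DEPTOR binds and inhibits mTOR, the kinase downstream of AKT. HCT116 cells carry a heterozygous activating mutation of *PIK3CA*, and counts per gene do not tell its alleles apart.

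The groups were wild-type HCT116 cells, the single *AGO1* and *AGO2* knockouts, and the combined *AGO1/2/3* and *AGO1/2* knockouts, with 3 replicates each and 15 samples in all. The knockouts were made by CRISPR in the same parental HCT116 line, all lines were untreated, and cells were used between passages 12 and 18. Each genotype is represented by a single line, so that genotype and line cannot be told apart. The p-values measure only the spread between samples of the same line, pooled over all lines. Levels are given as CPM, that is estimated counts per gene for every 1000000 counts of the sample after scaling by the TMM method, and replicates are listed in the order 1 to 3. Genes were called at an adjusted p of 0.05 or less (quasi-likelihood test of edgeR, Benjamini-Hochberg over 22842 genes), and each log2 fold change is followed by its standard error (SE).

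Totals of 27709971 to 45271146 counts per sample lay behind these levels. The RNA of the targeted genes was read first as a check of the labels. *AGO1* RNA was at 27.0%, 28.0% and 24.8% of the wild-type level in *AGO1* and then *AGO1/2* and lastly *AGO1/2/3* knockout cells, and *AGO3* RNA was at 46.1% in *AGO1/2/3* knockout cells. *AGO2* RNA was at 70.4% in *AGO2* knockout cells, did not pass the test in *AGO1/2* knockout cells (83.4%) and was higher than wild type in *AGO1/2/3* knockout cells (132%, adjusted p = 0.00477). Counts over a whole gene do not show a small edit, so that *AGO2* RNA checks that label in neither direction and the lines are named as labelled. Of 7 epithelial markers, 5 were above 1 CPM in all 15 samples, while *VIL1* and *LGALS4*, markers of differentiated colon epithelium, did not exceed 0.414 CPM. The summed level of 5 leukocyte markers was 2.5 to 5.9 CPM in wild-type and single knockout samples and 9.31 to 15.0 CPM in *AGO1/2/3* and *AGO1/2* knockout samples, with *CD3E* at or near 0. That of 6 fibroblast markers was 23.6 to 30.9 CPM in wild-type, 27.5 to 30.4 in *AGO1/2/3*, 13.4 to 16.3 in *AGO1/2*, 14.2 to 19.3 in *AGO1* and 11.7 to 13.5 CPM in *AGO2* knockout samples. Only *COL1A1* and *COL1A2* of these 6 exceeded 1 CPM in any sample, and *LUM* was at or near 0. The sum of 3 endothelial markers was 1.47 to 3.20 CPM over all samples. The part of these transcripts in the results was not tested. Column headers show that *AGO2* knockout samples were quantified in another mode than the rest, so that mode and genotype cannot be told apart for that line.

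In *AGO1/2/3* knockout cells the brakes *PHLPP2* and *INPP4B*, the regulatory subunit *PIK3R3* and the adaptor *IRS2* rose between 2.30-fold and 4.29-fold, and *PHLPP1* rose 1.33-fold. *IRS1* fell to 29.9% and *DEPTOR* to 6.48% of the wild-type level. *PIK3CA* and *PIK3R1* did not pass the test in this line. Hence 5 of the 9 genes were called higher and 2 lower, where 20.3% of all genes tested were called higher and 19.8% lower. Brakes and adaptors were found among the genes that rose and among those that fell.

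**Figure D1:**
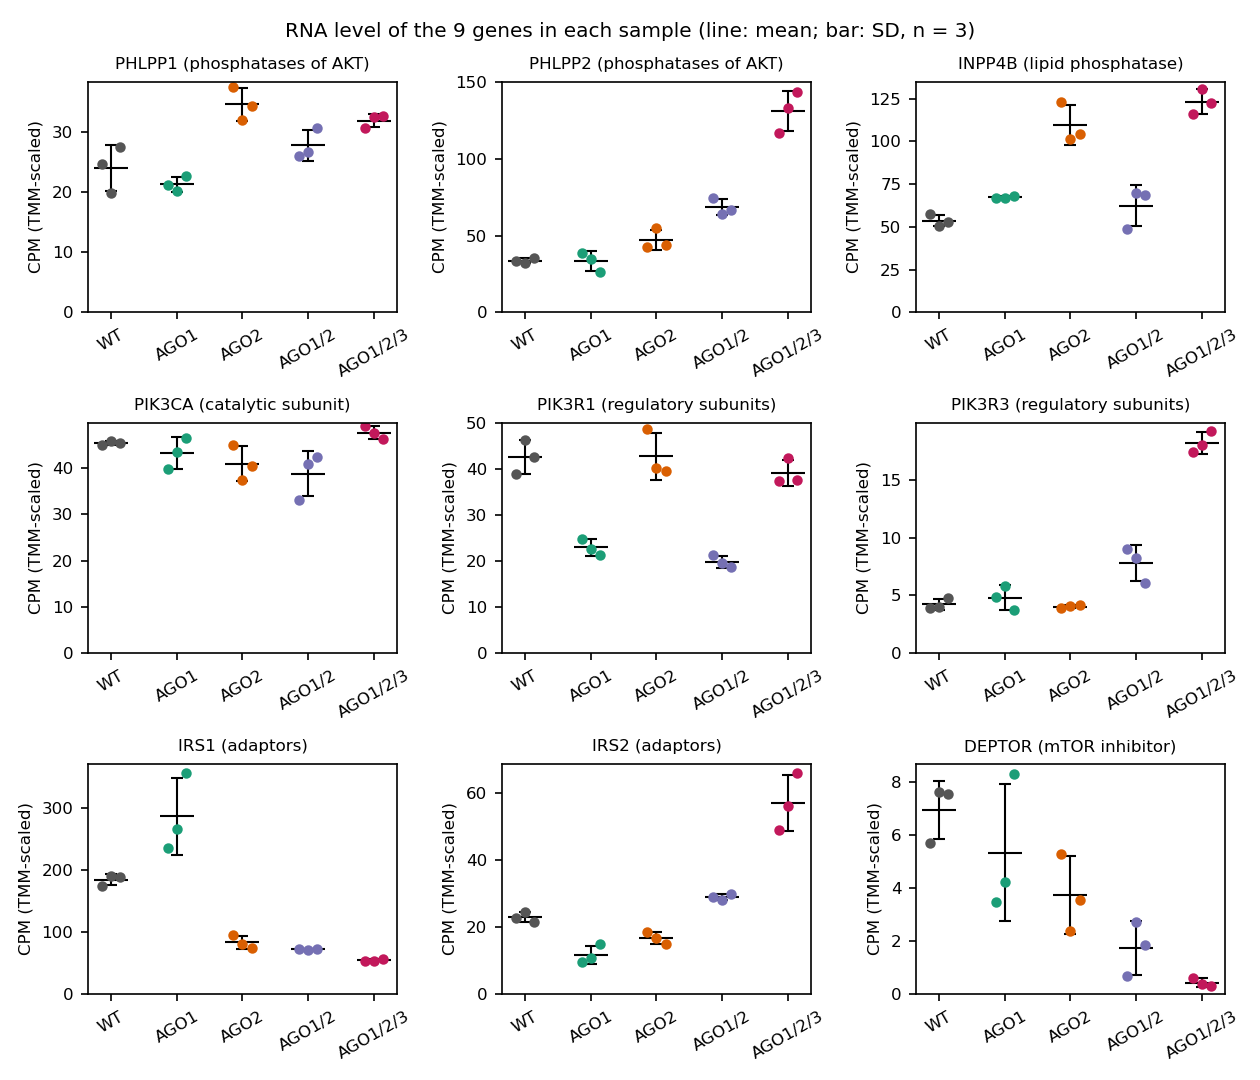
RNA level of each of the 9 genes (CPM, vertical axis from 0, scale set for each gene) in the 3 samples of each line, with points for samples, a line for the mean and a bar for the SD. PHLPP2, PIK3R3 and IRS2 reach their highest levels in the AGO1/2/3 knockout samples, IRS1 and DEPTOR their lowest, and PIK3R1 is low in the AGO1 and AGO1/2 knockout samples only.

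*PHLPP2* dephosphorylates AKT at its C-terminal regulatory site. Its gene lies on chromosome 16 (GRCh38, chr16:71637835-71724701, minus strand), and the study counts it among the genes with AGO2 bound in the 3′-UTR. The eCLIP samples behind that assignment were not analysed here. *PHLPP2* was also among the selected genes whose RNA the study followed by RNAseq and quantitative PCR in its knockout lines. Those values were not compared here. The 3′-UTR of the canonical GENCODE v44 transcript of *PHLPP2* (3966 bases) was searched on the strand of the transcript only. The search was for 7-letter matches to bases 2 to 8 of 16 microRNA families chosen by name. Of these, 6 families had a match and 10 matches were found in all. The families miR-27 and miR-92 had 3 matches each. At least 3 miR-27 matches occurred in 0.7%, and at least 3 miR-92 matches in 0.5%, of 1804 3′-UTRs whose length was within 20% of that of *PHLPP2*. For the other families with a match this share was 29.8% to 47.4%. The families miR-27 and miR-92 were picked after counting, so that these shares are no test. The microRNAs are shown with the seed (bases 2 to 8) in capitals, from RefSeq, and 5 of the target sites with the matching letters in capitals, from GRCh38, both 5′ to 3′.
hsa-miR-27a-3p: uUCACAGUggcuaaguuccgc
PHLPP2 miR-27 site at chr16:71647995-71648016: agcacttttcattgACTGTGAa
PHLPP2 miR-27 site at chr16:71647839-71647860: cttttggatgtcagACTGTGAa
PHLPP2 miR-27 site at chr16:71645767-71645788: ggctttattgtactACTGTGAa
hsa-miR-92a-3p: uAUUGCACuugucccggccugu
PHLPP2 miR-92 site at chr16:71645751-71645772: tgtgaagtgtatgtGTGCAATa
PHLPP2 miR-92 site at chr16:71645106-71645127: tatcttacggttttGTGCAATc
All 3 miR-27 matches are followed by an A, the letter that lengthens a seed match, as is the first miR-92 match shown. The last miR-27 window and that miR-92 window overlap. Sequence matches are a description, and neither binding nor microRNA levels were measured here. None of the sites shown lies within the AGO2 cluster that the study places in this 3′-UTR. The miR-27 sites at chr16:71647995-71648016 and chr16:71647839-71647860 flank it on either side. Within the cluster the study lists candidate sites of other microRNAs, among them miR-301a and miR-24, whose 7-letter matches were not found here. Whether any of these sites takes part in AGO2 binding was not tested.

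*PHLPP2* stood at 33.6, 31.8 and 35.6 CPM in wild-type samples and at 38.6, 35.0 and 26.2 CPM in *AGO1* knockout samples. These ranges overlapped, and the fold change was -0.02 on the log2 scale (SE 0.14, adjusted p = 0.962, edgeR's quasi-likelihood test). *AGO2* knockout samples had 42.3, 54.8 and 44.1 CPM, all above the wild-type samples. *AGO1/2* knockout samples had 74.5, 64.2 and 67.0 CPM, and *AGO1/2/3* knockout samples had 117, 133 and 144 CPM. The lines thus formed a series without overlap from *AGO2* to *AGO1/2* to *AGO1/2/3* knockout cells, each step of which passed the test. Against wild type, the log2 fold changes were 0.48 (SE 0.14, adjusted p = 0.0277) in *AGO2*, 1.03 (SE 0.14, adjusted p = 0.000141) in *AGO1/2* and 1.96 (SE 0.14, adjusted p = 6.2e-08) in *AGO1/2/3* knockout cells, by edgeR's quasi-likelihood test. The step from *AGO1/2* to *AGO1/2/3* knockout cells was 0.94 (SE 0.14, adjusted p = 0.000183). The call in *AGO2* knockout cells was the least firm: adjusted p rose to between 0.0537 and 0.174 when wild-type replicate 1 or 2, *AGO2* knockout replicate 2 or 3 or *AGO1/2/3* knockout replicate 2 was left out, with log2 fold changes of 0.34 to 0.50. It was also lost with scaling to total counts only (log2 0.36, adjusted p = 0.0823) and with only the samples of the 2 lines in the fit (adjusted p = 0.0543).

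The 3′ end of *PHLPP2* shares 1068 exon bases with *MARVELD3*, a tight junction gene on the opposite strand. The library kit keeps the strand, but whether the counting used it is not given in the sources used here. *MARVELD3* had 14.6 to 17.3 CPM in wild-type samples and 3.45 to 4.36 CPM in *AGO1/2/3* knockout samples. It was thus lowest where *PHLPP2* was highest. The part of shared reads in either value was not tested.

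Over the 15 samples, the genes with the log2 level most like that of *PHLPP2*, among 16082 others averaging 1 CPM or more, were *FRS2* (Pearson r = 0.989), *ANKRD52* (0.988), *SPATS2L* (0.988), *PANK3* (0.984) and *KIFBP* (0.983). The samples share lines and libraries, so that these correlations mainly follow the means of 5 lines and are given with no test. *FRS2*, an adaptor of fibroblast growth factor receptors, had a log2 fold change of 1.21 in *AGO1/2/3* knockout cells.

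*PHLPP1* (chr18:62715541-62980433, plus strand) is the paralog of *PHLPP2* and acts on the same site of AKT. It had 24.6, 19.9 and 27.5 CPM in wild-type samples and 30.7, 32.4 and 32.6 CPM in *AGO1/2/3* knockout samples. *AGO2* knockout samples were the highest, at 37.5, 32.0 and 34.4 CPM. *AGO1* knockout samples (21.2, 20.1 and 22.6 CPM) and *AGO1/2* knockout samples (26.0, 26.6 and 30.7 CPM) overlapped with wild type. In the order of the 5 lines, no pair of neighbours differed beyond the spread, but *PHLPP1* rose in *AGO2* (log2 0.53, SE 0.12, adjusted p = 0.00832) and in *AGO1/2/3* knockout cells (log2 0.41, SE 0.12, adjusted p = 0.0107) against wild type, by edgeR's quasi-likelihood test. The second call was lost without wild-type replicate 2 (log2 0.27, adjusted p = 0.0663), without *AGO1/2/3* knockout replicate 3 (adjusted p = 0.0591) with scaling to total counts only (log2 0.27, adjusted p = 0.0599) and with only the samples of the 2 lines in the fit (adjusted p = 0.0642). Its 3′-UTR (1002 bases) held 2 matches, both to miR-200a, and at least as many were found in 0.6% of 3′-UTRs of like length.

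Levels per kilobase were divided by the length of all annotated exons of a gene merged, not of the transcripts expressed. They therefore compare different genes only roughly. Per kilobase of exon the AKT phosphatases had near values in wild-type cells, with 2.70 ± 0.15 CPM per kb for *PHLPP2* and 2.65 ± 0.42 for *PHLPP1* (SD, n = 3). In *AGO1/2/3* knockout cells they stood at 10.5 ± 1.06 and 3.53 ± 0.12 CPM per kb. The log2 ratio of *PHLPP2* to *PHLPP1* counts within a sample was 0.37 to 0.68 in wild type, 1.13 to 1.52 in *AGO1/2* and 1.94 to 2.14 in *AGO1/2/3* knockout samples. These groups do not overlap, and an exact permutation test of 3 against 3 samples cannot give p under 0.1, so that no test is given.

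*INPP4B* (chr4:142023160-142847432, minus strand) removes a phosphate from a lipid product of PI3K that helps to activate AKT. Its values were 57.5, 50.8 and 52.7 CPM in wild-type samples and 66.7, 67.0 and 67.9 CPM in *AGO1* knockout samples. *AGO2* knockout samples had 123.1, 102 and 104 CPM. The *AGO1/2/3* knockout samples, with 116, 131 and 122.8 CPM, overlapped with them, and these lines did not differ beyond the spread (adjusted p = 0.307). *AGO1/2* knockout samples, with 48.9, 69.9 and 68.5 CPM, lay with wild type and *AGO1* knockout instead. *INPP4B* rose in *AGO2* (log2 1.03, SE 0.13, adjusted p = 0.000163) and *AGO1/2/3* knockout cells (log2 1.20, SE 0.13, adjusted p = 2.4e-06), by edgeR's quasi-likelihood test. In *AGO1* and *AGO1/2* knockout cells the log2 fold changes were 0.32 (adjusted p = 0.128) and 0.22 (adjusted p = 0.27). It was lower in *AGO1/2* than in *AGO2* knockout cells, by -0.81 on the log2 scale (SE 0.12, adjusted p = 0.000296). Its 3′-UTR of 5622 bases held 10 matches to 8 of the 16 seed families.

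*PIK3CA* (chr3:179148114-179240093, plus strand) encodes the catalytic subunit p110α. It had 45.0, 46.0 and 45.4 CPM in wild-type samples. The other samples ranged from 33.2 to 49.1 CPM, the lowest being *AGO1/2* knockout replicate 1. Alone among the 9 genes, it passed the test in none of the 4 knockout lines and not between *AGO1/2/3* and *AGO1/2*. Against wild type the log2 fold changes were -0.07 (adjusted p = 0.742), -0.15 (0.319), -0.23 (0.161) and 0.07 (0.646) in the *AGO1*, *AGO2*, *AGO1/2* and lastly *AGO1/2/3* knockout lines, each with SE 0.10, by edgeR's quasi-likelihood test. The *AGO1/2/3* knockout samples (46.3 to 49.1 CPM) lay just above the wild-type samples, and with scaling to total counts only the sign turned (-0.07). Parts of *PIK3CA* have near-identical copies elsewhere in the genome, and its exons share 3403 bases with *KCNMB3* on the opposite strand, which had at most 23.3 counts in a sample. Its 3′-UTR of 5729 bases held 12 matches to 8 seed families, the most of the 9 genes, 3 of them to miR-200b.

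*PIK3R1* (chr5:68215740-68301821, plus strand) encodes p85α and shorter forms, which hold the catalytic subunit stable and inactive until a receptor or adaptor binds. In wild-type samples it had 38.8, 46.3 and 42.5 CPM. It had 24.9, 22.5 and 21.4 CPM in *AGO1* knockout samples and 21.3, 19.5 and 18.6 CPM in *AGO1/2* knockout samples. Both groups lay below all wild-type samples. By contrast, *AGO2* knockout samples (48.5, 40.1 and 39.5 CPM) and *AGO1/2/3* knockout samples (37.3, 42.3 and 37.5 CPM) overlapped with wild type. *PIK3R1* fell to 53.9% of wild type in *AGO1* (log2 -0.89, SE 0.11, adjusted p = 0.000166) and to 46.6% in *AGO1/2* knockout cells (log2 -1.10, SE 0.11, adjusted p = 7.64e-06), by edgeR's quasi-likelihood test. It was higher in *AGO1/2/3* than in *AGO1/2* knockout cells by 0.98 (SE 0.11, adjusted p = 1.64e-05), and its log2 fold change against wild type in *AGO1/2/3* knockout cells was -0.13 (adjusted p = 0.392). In *AGO2* knockout cells it was 0.01 (adjusted p = 0.976).

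*PIK3R3* (chr1:46040140-46133036, minus strand) encodes p55γ, a shorter regulatory subunit. It was rare in wild-type samples, at 3.88, 4.02 and 4.79 CPM, and likewise in *AGO1* (4.82, 5.85 and 3.70 CPM) and *AGO2* knockout samples (3.87, 4.05 and 4.15 CPM). *AGO1/2* knockout samples had 9.03, 8.24 and 6.04 CPM. *AGO1/2/3* knockout samples had 17.4, 18.0 and 19.2 CPM and stood apart from all other samples. *PIK3R3* rose by 0.88 on the log2 scale in *AGO1/2* (SE 0.17, adjusted p = 0.00223) and by 2.10 in *AGO1/2/3* knockout cells (SE 0.17, adjusted p = 1.63e-07), by edgeR's quasi-likelihood test. With 111 to 681 estimated counts per sample it was measured less deeply than all members but *DEPTOR*. It shares 1292 exon bases with a read-through gene on the same strand, *P3R3URF-PIK3R3*, which had at most 17.0 counts in a sample, so that few counts were given to that gene. Its 3′-UTR (3533 bases) held 2 matches each to miR-19, miR-24 and miR-92, and the miR-92 sites are shown because *PHLPP2* has sites of the same family.
PIK3R3 miR-92 site at chr1:46042694-46042715: tgagtaaagaaaagGTGCAATg
PIK3R3 miR-92 site at chr1:46040267-46040288: gttcagacattgctGTGCAATt
At least 2 miR-92 matches were found in 3.6% of 3′-UTRs of like length.

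The levels of the regulatory subunits lay closer together in *AGO1*, *AGO1/2* and *AGO1/2/3* knockout than in wild-type cells. The log2 ratio of *PIK3R3* to *PIK3R1* counts was -3.53 to -3.15 in wild-type and -3.65 to -3.25 in *AGO2* knockout samples. It was -2.53 to -1.94 in *AGO1*, -1.63 to -1.24 in *AGO1/2* and -1.23 to -0.97 in *AGO1/2/3* knockout samples. *PIK3R1* itself was lower in *AGO1* and *AGO1/2* knockout cells. Per kilobase of exon, *PIK3R3* stood at 0.572 ± 0.066 and *PIK3R1* at 2.61 ± 0.23 CPM per kb in wild type (SD over 3 samples). In *AGO1/2/3* knockout cells the values were 2.46 ± 0.12 and 2.39 ± 0.17 CPM per kb. These values depend on the merged exon length, and whether the subunits were equally abundant was not tested.

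*IRS1* (chr2:226731312-226799820, minus strand) links the insulin and insulin-like growth factor receptors to PI3K and was the most abundant of the 9 genes per kilobase in wild-type cells (18.4 ± 0.84 CPM per kb, SD, n = 3). It had 175, 190 and 188 CPM in wild-type samples and rose to 235, 266 and 356 CPM in *AGO1* knockout samples. In every other knockout line it was lower. *AGO2* knockout samples had 95.5, 80.5 and 74.98 CPM and *AGO1/2* knockout samples 72.9, 70.8 and 72.6 CPM. *AGO1/2/3* knockout samples were the lowest, at 54.2, 54.2 and 57.0 CPM. None of the knockout groups overlapped with wild type. The log2 fold changes were 0.63 (SE 0.13, adjusted p = 0.00676), -1.14 (SE 0.13, adjusted p = 9.9e-05), -1.35 (SE 0.13, adjusted p = 5.61e-06) and -1.74 (SE 0.13, adjusted p = 1.03e-07) in the *AGO1*, *AGO2*, *AGO1/2* and lastly *AGO1/2/3* knockout lines, by edgeR's quasi-likelihood test. The call in *AGO1* knockout cells was lost when the fit held only the samples of the 2 lines (adjusted p = 0.0838). The further fall from *AGO1/2* to *AGO1/2/3* knockout cells (log2 -0.39, SE 0.13, adjusted p = 0.0456) was near the threshold: it was lost without any one sample of either line (adjusted p = 0.0655 to 0.125), without wild-type replicate 1 or *AGO2* knockout replicate 2 (adjusted p = 0.0504 and 0.0506), and with the replicate number as a block (adjusted p = 0.0607).

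The 3′-UTR of *IRS1* (4960 bases) held 11 matches to 8 seed families, among them 3 to miR-27, as many as that of *PHLPP2*. At least 3 were found in 1.5% of 3′-UTRs of like length.
IRS1 miR-27 site at chr2:226736032-226736053: aaaaaaaaaaatgcACTGTGAc
IRS1 miR-27 site at chr2:226732895-226732916: ccctgaatccagacACTGTGAa
IRS1 miR-27 site at chr2:226732368-226732389: taaaagacctctagACTGTGAg
Of these 2 members with 3 matches to the miR-27 seed, *PHLPP2* was called higher and *IRS1* lower in every knockout line but *AGO1*. In that line only *IRS1* was called, with log2 fold changes of 0.63 for *IRS1* and -0.02 for *PHLPP2*. Whether miR-27 takes part in the change of either gene was not tested.

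*IRS2* (chr13:109752695-109786583, minus strand) encodes the related adaptor best known for insulin signaling in liver and pancreatic islets. It had 22.7, 24.5 and 21.6 CPM in wild-type samples. *AGO1* knockout samples (9.52, 10.7 and 14.8 CPM) and *AGO2* knockout samples (18.6, 16.6 and 15.0 CPM) lay below them. *AGO1/2* knockout samples (28.9, 28.2 and 29.9 CPM) and *AGO1/2/3* knockout samples (49.0, 56.1 and 65.9 CPM) lay above, so that the single and the combined knockouts fell on opposite sides of wild type. *IRS2* fell in *AGO1* (log2 -0.97, SE 0.15, adjusted p = 0.00108) and *AGO2* knockout cells (log2 -0.45, SE 0.15, adjusted p = 0.0453), by edgeR's quasi-likelihood test. It rose in *AGO1/2/3* knockout cells by 1.31 (SE 0.15, adjusted p = 5.13e-06), and the log2 fold change of 0.34 in *AGO1/2* knockout cells did not pass (SE 0.15, adjusted p = 0.14). The call in *AGO2* knockout cells was lost with DESeq2's size factors (adjusted p = 0.0536), with no filter (0.057), with the replicate number as a block (0.0581), with the samples of the 2 lines only (0.0572) and without any of 8 samples: wild-type replicates 1 and 2, *AGO1* replicate 2, *AGO2* replicates 2 and 3, *AGO1/2* replicates 2 and 3 and *AGO1/2/3* replicate 2 (adjusted p = 0.0543 to 0.152). Its 3′-UTR (3609 bases) held 8 matches, each to another of the 16 seed families.

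The balance of the IRS adaptors changed in every line. The log2 ratio of *IRS2* to *IRS1* counts was -3.12 to -2.94 in wild-type, -4.64 to -4.58 in *AGO1*, -2.36 to -2.27 in *AGO2*, -1.34 to -1.28 in *AGO1/2* and -0.14 to 0.21 in *AGO1/2/3* knockout samples. No pair of these groups overlapped. Per kilobase of exon *IRS2* stood at 2.81 ± 0.18 against 18.4 ± 0.84 CPM per kb for *IRS1* in wild type, and at 6.99 ± 1.04 against 5.50 ± 0.16 CPM per kb in *AGO1/2/3* knockout cells (SD, n = 3).

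**Figure D2:**
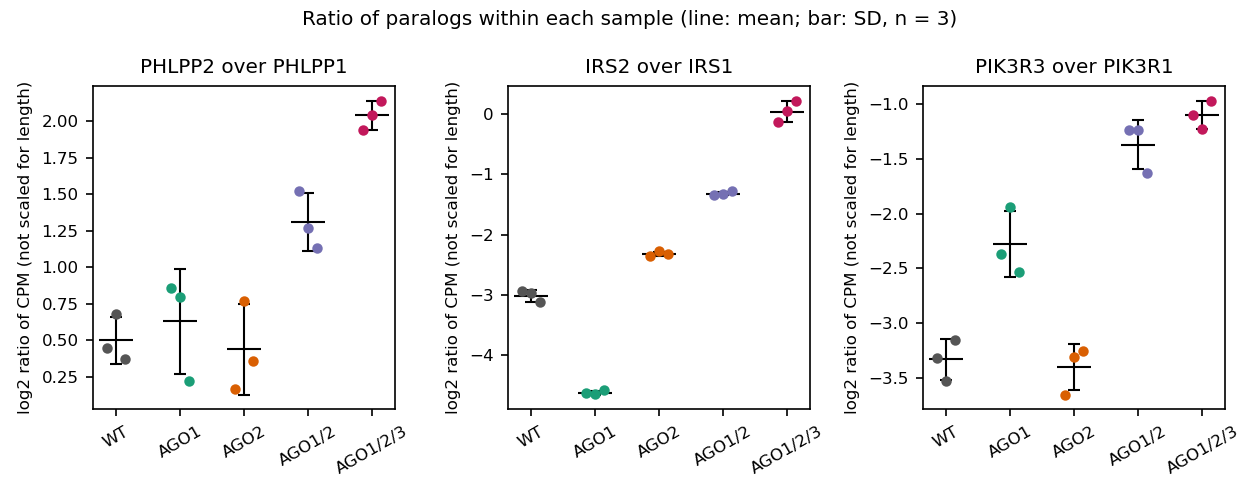
Log2 ratio of the counts of each pair of paralogs within a sample (vertical axis, not scaled for gene length) in the 5 lines, with points for samples, a line for the mean and a bar for the SD. The IRS2 to IRS1 ratio takes a separate range in each line, and the PHLPP2 to PHLPP1 ratio is highest in the AGO1/2/3 knockout samples, at 1.94 to 2.14.

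*DEPTOR* (chr8:119873717-120050918, plus strand) had 5.70, 7.62 and 7.54 CPM in wild-type samples and 3.49, 4.24 and 8.30 CPM in *AGO1* knockout samples, which overlapped. *AGO2* knockout samples had 5.28, 2.38 and 3.57 CPM. *AGO1/2* knockout samples had 0.673, 2.72 and 1.84 CPM, and *AGO1/2/3* knockout samples 0.612, 0.385 and 0.305 CPM. In estimated counts the last were 24, 11 and 9 against 182, 239 and 250 in wild-type samples, so that the fold change in this line rests on few counts. *DEPTOR* fell by 2.0 in *AGO1/2* (SE 0.42, adjusted p = 0.00393) and by 3.95 on the log2 scale in *AGO1/2/3* knockout cells (SE 0.49, adjusted p = 1.36e-05), by edgeR's quasi-likelihood test. The log2 fold changes of -0.38 in *AGO1* (SE 0.38, adjusted p = 0.614) and -0.89 in *AGO2* knockout cells (SE 0.38, adjusted p = 0.111) did not pass. The step from *AGO1/2* to *AGO1/2/3* knockout cells was -1.95 (SE 0.54, adjusted p = 0.0166), and it was lost without *AGO1/2* knockout replicate 2 (log2 -1.47, adjusted p = 0.0952) or without *AGO1/2/3* knockout replicate 2 (adjusted p = 0.0562) or 3 (adjusted p = 0.0639). Its 3′-UTR (1214 bases) held 2 matches to the 16 seed families.

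Genes around *DEPTOR* were lower in the same lines. There were 41 tested genes within 5 Mb that averaged 1 CPM or more. In each of the *AGO1/2* and *AGO1/2/3* lines 21 of them were called lower, where 8.35% and 19.8% of all genes were. There, 1 and 4 were called higher, and the median log2 fold changes were -0.51 and -0.43. In *AGO1* and *AGO2* knockout cells the medians were 0.12 and 0.22, and 1 and 4 of the 41 were called lower, beside 5.50% and 10.8% of all genes. The shares of all genes given here have no floor of 1 CPM, unlike the neighbours. The change of *DEPTOR* itself was several times the median of its neighbours. Single neighbours ranged more widely than *DEPTOR*, from -6.41 to 3.37 in *AGO1/2* and from -8.84 to 5.42 in *AGO1/2/3* knockout cells. Around the other 8 members the medians lay between -0.11 and 0.32 in all comparisons. Whether the number of copies of this part of chromosome 8 differs between the lines was not tested.

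**Figure D3:**
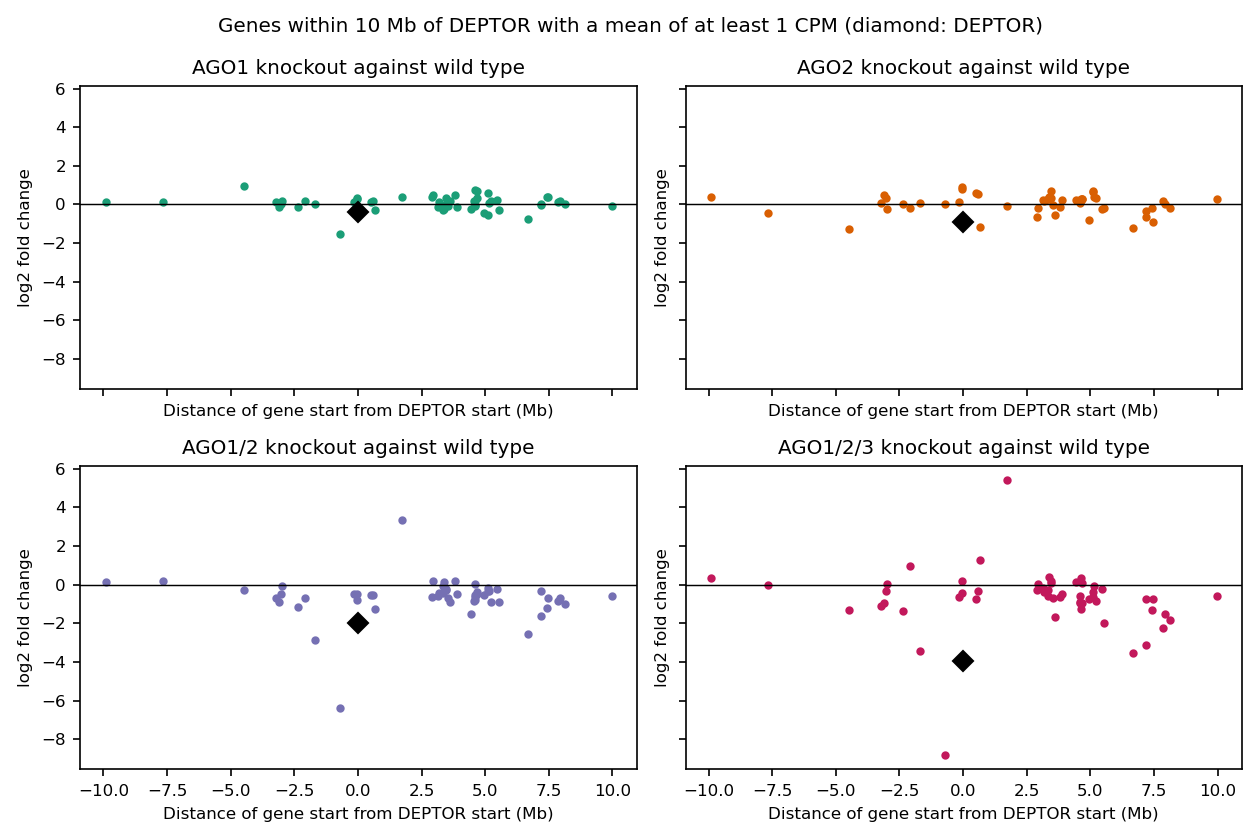
Log2 fold change against wild type (vertical axis) of tested genes within 10 Mb of DEPTOR that averaged 1 CPM or more, against the distance of their start from its start in Mb, one panel for each knockout line. The diamond is DEPTOR, and most other points lie below 0 in the AGO1/2 and AGO1/2/3 knockout panels.

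Taking the comparisons in turn, 1 member was called higher and 2 lower in *AGO1* knockout cells, where 3.17% of all genes were called higher and 5.50% lower (8.68% in all). In *AGO2* knockout cells 3 were called higher and 2 lower, against 8.55% and 10.8% of all genes (19.3%). In *AGO1/2* knockout cells 2 were higher and 3 lower, against 8.37% and 8.35% (16.7%), and in *AGO1/2/3* knockout cells 7 of 9 were called against 40.1%. The levels of 4, 7, 7 and 8 members did not overlap with wild type in these lines, and the same held for 23.1%, 37.1%, 29.7% and 50.0% of all genes. The median size of the log2 fold change over the members, regardless of sign, was 0.32, 0.48, 0.88 and 1.31 in these lines, beside 0.22, 0.30, 0.26 and 0.41 over all genes tested. These 4 comparisons share the wild-type samples. Between *AGO1/2/3* and *AGO1/2* knockout cells, 5 members were higher and 2 lower, where 11.9% of all genes were higher and 10.0% lower (22.0%), and 8 members did not overlap, against 41.6% of all genes. Of the 22842 genes tested, 16083 averaged 1 CPM or more, and shares over genes of like level are not given. The members were chosen by name with earlier results of these data known, and no test over the list was made.

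**Figure D4:**
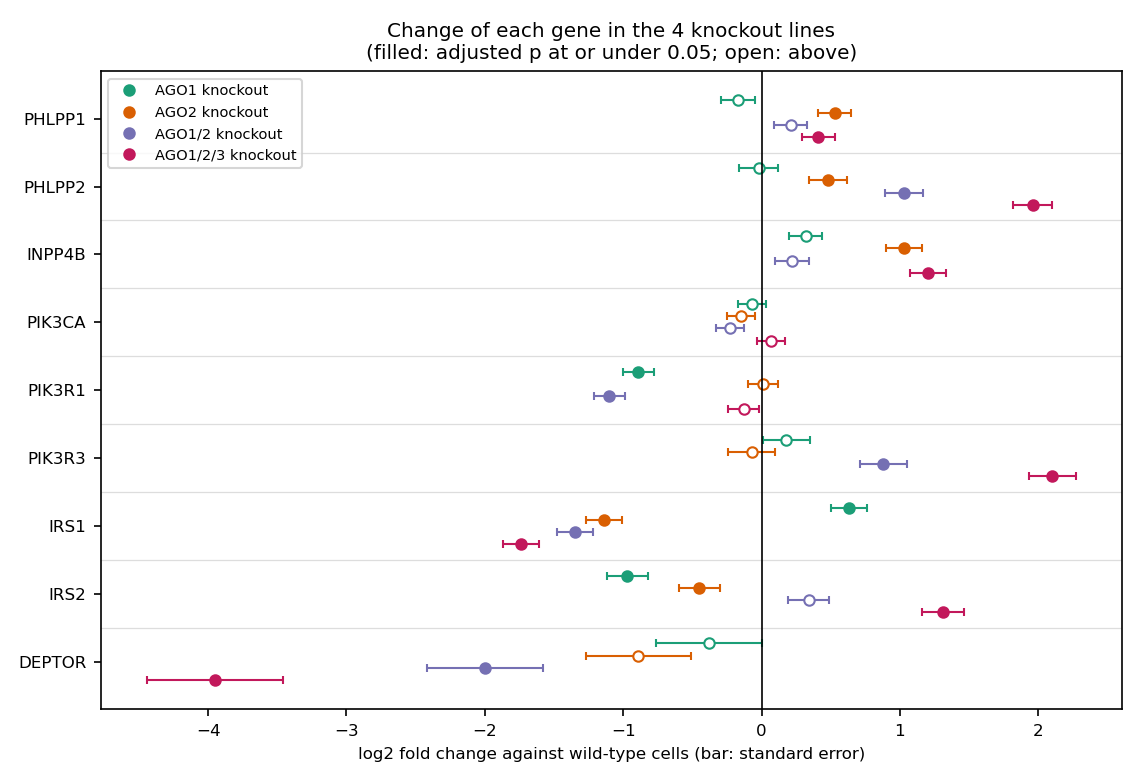
Log2 fold change against wild type (horizontal axis) of the 9 genes in the 4 knockout lines, with standard errors as bars, filled points for genes called and open points for the rest. IRS2 lies on both sides of 0, at -0.97 in AGO1 and 1.31 in AGO1/2/3 knockout cells, and DEPTOR lies farthest left at -3.95.

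Changes that went with *AGO2* knockout were compared between lines with and without *AGO1* as an interaction. This was the log2 change from *AGO1* to *AGO1/2* knockout cells less that from wild-type to *AGO2* knockout cells. It passed the test for 4 of 9 members, 2 above and 2 below 0, where 11.5% and 8.26% of all genes did so (19.7%). For *IRS2* it was 1.76 (SE 0.21, adjusted p = 6.87e-05, edgeR's quasi-likelihood test): its level was lower in *AGO2* knockout than in wild-type cells but higher in *AGO1/2* than in *AGO1* knockout cells (log2 1.31, SE 0.15, adjusted p = 2.15e-05). For *INPP4B* it was -1.14 (SE 0.18, adjusted p = 0.000488), for *IRS1* -0.85 (SE 0.18, adjusted p = 0.00518) and for *PIK3R3* 0.77 (SE 0.24, adjusted p = 0.0344). The last was lost without 9 of the 15 samples in turn. For *PHLPP2* it was 0.56 (SE 0.20, adjusted p = 0.0569), and for *PHLPP1*, *PIK3CA*, *PIK3R1* and *DEPTOR* adjusted p was 0.355 or more. The interaction includes the *AGO2* knockout samples and with them their mode of quantification. Each genotype is a single line, so that dependence on *AGO1* cannot be told apart from differences between the lines.

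The other genes of the pathway were read from a list of 53, of which 51 were tested. In *AGO1/2/3* knockout cells 21 were called higher and 13 lower, 34 in all or 66.7%, beside 40.1% of all genes, with a median log2 fold change of 0.09 beside -0.01 over all genes tested. With scaling to total counts only, 15 were called higher and 16 lower. In *AGO1* knockout cells 4 were called (7.8% of the list, beside 8.68% of all genes), 1 higher and 3 lower, and 1 and 8 with total counts only. In *AGO2* knockout cells 11 were called (21.6%, beside 19.3%), 2 higher and 9 lower, and 0 and 12 with total counts only. In *AGO1/2* knockout cells 13 were called (25.5%, beside 16.7%), 8 higher and 5 lower, and 6 and 9 with total counts only. The steps from *AGO1/2* to *AGO1/2/3* knockout cells passed for 13 genes higher and 6 lower, where 11.9% of all genes were higher and 10.0% lower, and for 10 and 8 with total counts only. Of 8 kinases 7 were called higher and 1 lower in *AGO1/2/3* knockout cells against wild type, and of 2 receptors 1 was called higher, where 20.3% of all genes were called higher and 19.8% lower. Among 10 genes of the mTOR complexes 3 were higher and 4 lower, and among 10 other brakes 3 were higher and 4 lower. The shares of all genes include genes averaging under 1 CPM, and shares over genes of like level are not given.

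The kinase *AKT1* rose by 0.41 on the log2 scale in *AGO1/2/3* knockout cells (SE 0.12, adjusted p = 0.0109, edgeR's quasi-likelihood test), from 75.2 to 108 CPM in wild-type samples to 121 to 133 CPM. *MTOR*, the kinase that DEPTOR inhibits, rose by 0.42 (SE 0.12, adjusted p = 0.0126). Whether these calls of *AKT1* and *MTOR* hold with scaling to total counts only is not given here. *PHLPP1*, with a like change of 0.41, lost its call under that scaling (log2 0.27). *AKT2*, a paralog of *AKT1*, fell by 0.49 (SE 0.08, adjusted p = 0.000264), from 78.2 to 86.3 CPM in wild-type samples to 55.9 to 63.9 CPM.

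Further genes of the list with a change of at least 2-fold in *AGO1/2/3* knockout cells included the adaptors *GAB2* (log2 1.5) and *PIK3AP1* (1.42) and the AKT-related kinases *SGK1* (1.30) and *SGK3* (1.67), all higher. *SGK3* had 17.9 to 27.6 CPM in wild-type and 63.3 to 80.5 CPM in *AGO1/2/3* knockout samples. In *AGO1/2* knockout cells *PIK3AP1* (1.13), *SGK3* (1.0) and *SGK1* (0.84) were called higher too, and *GAB2* (0.37) was not called. *GRB14*, an adaptor that inhibits the insulin receptor, had 4.56 to 6.52 CPM in wild-type samples and 0, 3 and 1 counts in *AGO1/2/3* knockout samples, at or under a floor of 3 counts per sample. It was thus at least 58.5-fold lower, and with *GRB14* at this bound the median of the list stayed 0.09. *GRB14* was called lower in *AGO1/2* knockout cells as well, with a mean of 0.146 CPM.

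*PRR5*, a subunit of the mTOR complex that phosphorylates AKT, fell by 1.02 (SE 0.13, adjusted p = 1.69e-05) and *EIF4EBP1*, the translation repressor that mTOR inactivates, by 1.51 (SE 0.23, adjusted p = 8.27e-05, edgeR's quasi-likelihood test). The stress-induced brakes *DDIT4* (log2 -3.82, SE 0.59), *TRIB3* (-3.15, SE 0.74) and *SESN2* (-2.0, SE 0.57) were also lower, whereas *SESN3* was higher (1.14, SE 0.27). *DDIT4* (-1.62), *TRIB3* (-2.35) and *SESN2* (-2.32) were called lower in *AGO2* knockout cells too, but not in *AGO1* or *AGO1/2* knockout cells. These stress-induced genes varied widely within wild type. *TRIB3* had 99.6, 135 and 18.0 CPM in the wild-type samples and 8.70 to 10.2 CPM in *AGO1/2/3* knockout samples. *SESN2* had 41.2, 94.8 and 10.7 CPM in wild-type samples, which overlapped with the 10.98 to 13.0 CPM of *AGO1/2/3* knockout samples.

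**Figure D5:**
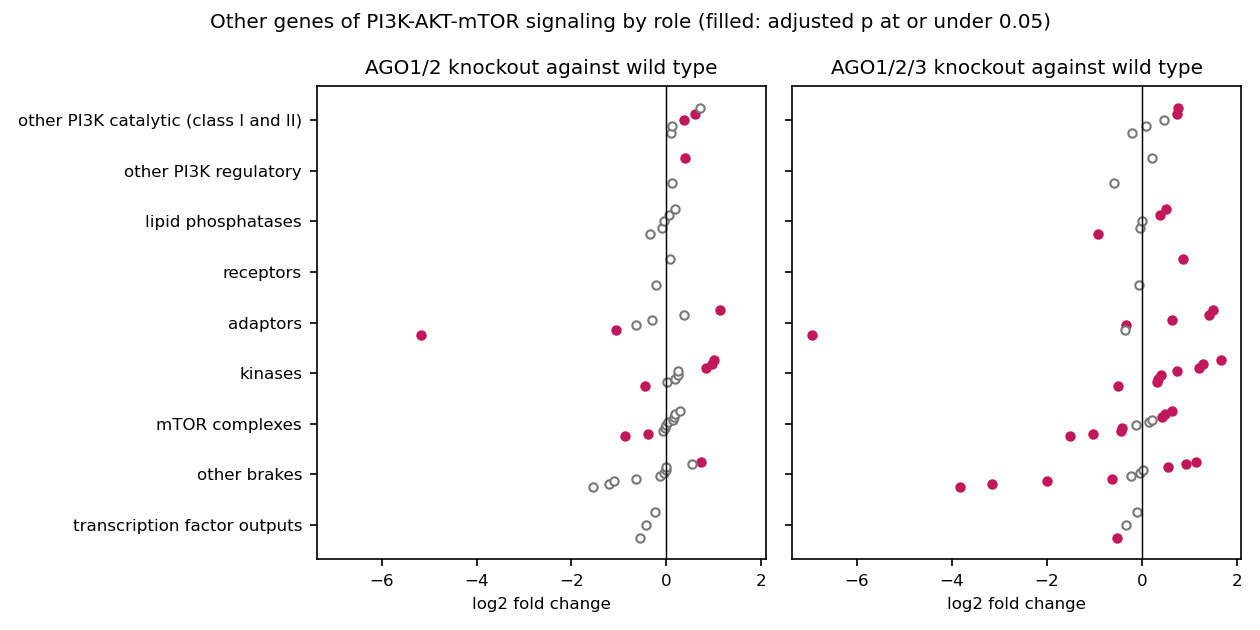
Log2 fold change against wild type (horizontal axis) of the 51 tested genes of the list in the AGO1/2 (left) and AGO1/2/3 (right) knockout lines, grouped by role, filled where called. The kinases lie mostly above 0 in AGO1/2/3 knockout cells, and GRB14, at the far left among the adaptors, is a fitted value for a gene at or under the floor.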

How the data were processed

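RNAseq was analysed in 15 samples, 3 of each of 5 lines, grouped by their labels. Per the labels and the study's methods, the authors sequenced ribosomal RNA-depleted stranded libraries, aligned reads with STAR 2.5.3a and quantified them with Salmon 0.11.0 (versions from the submitters' processing notes), and they deposited estimated counts per gene, not normalized for depth. Estimated counts were rounded to whole numbers, filtered with filterByExpr and scaled by TMM, and one model with a mean per line was fitted by edgeR 4.0.16 (R 4.3.3) over the 15 samples (quasi-likelihood test, Benjamini-Hochberg adjustment). DESeq2 1.42.0, which the study used, was an alternative. Other alternatives were DESeq2's size factors, total counts only, no filter, a fit restricted to the lines compared, at least 10 counts in every sample, a replicate block, a 2-fold threshold and each sample left out in turn. Tables were made with Python 3.11.15, numpy 2.4.6 and pandas 2.3.3.

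The log2 levels used for correlations had a prior count of 2. Gene positions, exon lengths and 3′-UTRs are from GENCODE v44 (57167 of 57875 genes matched), and mature microRNAs from RefSeq. Seed matches were counted on the transcript strand. Shares of 3′-UTRs of like length are given for families picked after counting and are no test. Sites searched for different families can overlap, for example those for miR-19 and for miR-301a, and such matches were counted for each family. The named genes were all 9 members, *AKT1*, *AKT2* and *MTOR* of the pathway list, fixed whatever their values, others of the list called in *AGO1/2/3* knockout cells with at least a 2-fold change, and the 5 genes most like *PHLPP2*. *MARVELD3*, *KCNMB3*, *P3R3URF-PIK3R3*, the *AGO* genes and cell type markers were named for checks. The members and lists were chosen with earlier results of these data known.

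At 27709971 to 45271146 counts per sample, each member but *DEPTOR* had at least 111 counts in every sample. On simulated data for *AGO1/2/3* knockout against wild type with 22377 genes, the fit called 83 of 100 genes changed 2-fold and 100 of 100 changed 4-fold, with 15 false calls. Only these genes were changed, as many up as down, and each averaged 1 CPM or more. The simulation therefore does not show how the fit or its scaling performs where as many genes change as in the measured data. Identical values were found in 0 of 105 pairs of files. The eCLIP samples were not analysed here. Some genes of the list and 1 site are not reported here.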

Additional observations from a re-analysis of the deposited data

Results flagged for a closer look

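For 4 members the change that went with *AGO2* knockout differed between the lines with and without *AGO1*. The test was of the difference itself, an interaction in edgeR's quasi-likelihood fit of 3 samples per line. The difference was 1.76 on the log2 scale for *IRS2* (SE 0.21, adjusted p = 6.87e-05), where *AGO2* knockout samples lay below wild type and *AGO1/2* knockout samples above *AGO1* knockout samples. It was -1.14 for *INPP4B* (SE 0.18, adjusted p = 0.000488) and -0.85 for *IRS1* (SE 0.18, adjusted p = 0.00518). *INPP4B* was higher in *AGO2* knockout than in wild-type samples, whereas in *AGO1/2* against *AGO1* knockout cells its log2 fold change was -0.11 (adjusted p = 0.627). *IRS1* was lower in both, with log2 fold changes of -1.14 and -1.99. For *PIK3R3* the difference was 0.77 (SE 0.24, adjusted p = 0.0344), and its call was lost without 9 of the 15 samples in turn. Since *AGO2* knockout samples were quantified in another mode, mode and genotype cannot be told apart in these values. Each genotype is also a single line, so that line and genotype cannot be told apart in them either.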

How the results depend on the processing

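Counts of members called kept within 1.5 times of the reported count under most alternatives. With a 2-fold threshold beside the adjusted p, 0 members passed in *AGO1* and 2 in *AGO2* knockout cells, 2 in *AGO1/2/3* against *AGO1/2* knockout cells and 2 in the interaction. With only the samples of the lines compared, 2 were called in *AGO2* knockout cells. With each sample left out in turn, the counts were 3 to 3 in *AGO1*, 3 to 5 in *AGO2*, 5 to 5 in *AGO1/2* and 6 to 7 in *AGO1/2/3* knockout cells, 5 to 7 between the last lines and 3 to 4 in the interaction.

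For the pathway list in *AGO1* knockout cells, 4 genes called became 9 with total counts only, 2 with no filter, 2 with only the lines compared, 7 with DESeq2's Wald test and 1 with a 2-fold threshold. In *AGO2* knockout cells 11 became 5 with only the lines compared and 4 with a 2-fold threshold, and in *AGO1/2* knockout cells 13 became 7 and 4. With a 2-fold threshold 34 became 12 in *AGO1/2/3* knockout cells, and 19 became 5 against *AGO1/2* knockout cells. With each sample left out, the counts were 1 to 5, 5 to 12, 9 to 14 and 30 to 35 in the 4 knockout lines and 11 to 21 between the last lines.

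Signs turned only for values that were not called. For *PIK3CA* the log2 fold change in *AGO1/2/3* knockout cells was -0.074, and its interaction 0.114, with total counts only. For *PIK3R1* in *AGO2* knockout cells it was -0.113 with total counts only, -0.032 with at least 10 counts in every sample and -4.6e-05 with only the lines compared. With each sample left out, *PHLPP2* in *AGO1* knockout cells ranged from -0.139 to 0.149, the *PIK3CA* interaction from -0.11 to 0.094, *PIK3R1* in *AGO2* knockout cells from -0.126 to 0.048 and *PIK3R3* in *AGO2* knockout cells from -0.149 to 0.00021. The cause was not tested.

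Calls gained were *PHLPP2* in the interaction (adjusted p = 0.0249 with total counts, 0.0468 with at least 10 counts in every sample, 0.0344 without *AGO1* knockout replicate 1 and 0.0413 without *AGO2* knockout replicate 2), *PIK3CA* in *AGO1/2* knockout cells (total counts, log2 -0.319, adjusted p = 0.0427), *PIK3CA* between *AGO1/2/3* and *AGO1/2* knockout cells (DESeq2, adjusted p = 0.0253) and *DEPTOR* in *AGO2* knockout cells (no filter, adjusted p = 0.0384). With only the samples compared, *PHLPP1* and *PHLPP2* lost their calls in *AGO2* knockout cells (adjusted p = 0.0566 and 0.0543). The replicate numbers share only a number: same-numbered samples of different lines had a mean correlation of -0.011 against 0.006 for others, and 3 of 15 samples correlated best with their own number. With the replicate block, *IRS1* between *AGO1/2/3* and *AGO1/2* knockout cells (log2 -0.388, adjusted p = 0.0607) and *IRS2* in *AGO2* knockout cells (log2 -0.448, adjusted p = 0.0581) were not called. Depth limits *DEPTOR*, with 9.0 to 250.0 counts per sample.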
